A study of Homo sapiens with 6 samples.

Results

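The ID proteins and the inhibitory SMADs are short-lived regulators that cells make in answer to ligands of the BMP and TGF-beta family. The 5 genes described here are ID1, ID2, ID3, SMAD6 and SMAD7. They are 5 of 20046 genes with an annotated probe, and every probe of theirs was taken, 8 of the 47323 on the array. The genes were chosen by a measured value, the higher ID1 signal in cells over-expressing tRNA-Glu than in control cells, so the members' values in that comparison are given as a description, with no test.

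The cells were MDA-MB-231, an established human breast cancer line of mesenchymal character. Their total RNA was measured on 6 Illumina BeadChip arrays in 3 groups of 2 arrays. The tRNA-Glu group stably over-expressed the locus chr1.trna5 (Glu-TTC), the tRNA-Arg group over-expressed chr16.trna1 (Arg-CCG), and the control cells were mock-transfected. The labels state neither the vector, nor how many clones a line came from, nor whether replicate arrays stand for separate cultures. The p-values therefore measure the spread between the 6 arrays alone, and that spread may be technical. The levels of the tRNAs themselves were not analysed here.

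A BMP ligand binds a pair of receptor kinases, which phosphorylate SMAD1, SMAD5 and SMAD9. With SMAD4 these enter the nucleus and switch on ID1, ID2 and ID3, among the most direct targets of the pathway. ID proteins have a helix-loop-helix but no DNA-binding region. They pair with E proteins such as TCF3 and TCF12 and keep them off DNA. The same signal also induces SMAD6, which mainly restrains BMP signalling, and SMAD7, which restrains both the BMP and the TGF-beta branch. ID1 and ID3 have been studied in this line as genes of metastasis to the lung.

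Mean raw intensity per array lay between 250.6 and 331.3, and between 16650 and 17704 probes per array had a detection p-value under 0.01. Markers of the line, VIM, CD44, SPARC, CAV1 and AXL, were detected on all 6 arrays. The luminal genes CDH1, ESR1 and PGR were detected on none, while EPCAM and ERBB2 were detected on all 6. Of 5 blood cell markers, LAPTM5, CD68 and CSF1R were called higher in both lines than in control, as ID1 was higher there. Their summed raw intensity over all 5 was 3833 to 4661 in the tRNA-Glu arrays and 2859 to 3050 in the tRNA-Arg arrays, against 1667 to 1957 in control. Most of that sum was CD68, at 3295 and 2736 in tRNA-Glu, 2116.1 and 2268.4 in tRNA-Arg and 1096.2 and 1250.4 in control. Among all genes, 30.3% were called higher in tRNA-Glu and 20.5% in tRNA-Arg cells. PTPRC, the defining marker of blood cells, was detected on no array. CD14 was not called in tRNA-Glu cells (log2 difference 0.12, limma adjusted p = 0.337). It fell by 0.76 on the log2 scale in tRNA-Arg cells (adjusted p = 0.00136). The part of blood cells in the members' values was not tested.

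The stretches of DNA just before the transcription starts of ID1, ID2, ID3 and SMAD6 are printed here because these genes were higher in both lines than in control. Each run covers 250 bases before the start in RefSeq's annotation of GRCh38.p14, 5′ to 3′ on the gene's own strand. ID1 lies at chr20:31605289-31606510 with its window at chr20:31605039-31605288 on the plus strand. ID2 lies at chr2:8682056-8684461 with its window at chr2:8681806-8682055 on the plus strand. ID3 lies at chr1:23557926-23559501 with its window at chr1:23559502-23559751 on the minus strand. SMAD6 lies at chr15:66702236-66782849 with its window at chr15:66701986-66702235 on the plus strand. Capitals mark matches to the SMAD-binding letters GTCTAG or CAGAC, searched on both strands.
ID1: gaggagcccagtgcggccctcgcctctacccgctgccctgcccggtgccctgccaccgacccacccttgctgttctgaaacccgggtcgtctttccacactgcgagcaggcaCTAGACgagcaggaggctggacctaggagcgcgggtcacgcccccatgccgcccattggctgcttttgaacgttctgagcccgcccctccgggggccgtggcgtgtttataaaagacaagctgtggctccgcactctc
ID2: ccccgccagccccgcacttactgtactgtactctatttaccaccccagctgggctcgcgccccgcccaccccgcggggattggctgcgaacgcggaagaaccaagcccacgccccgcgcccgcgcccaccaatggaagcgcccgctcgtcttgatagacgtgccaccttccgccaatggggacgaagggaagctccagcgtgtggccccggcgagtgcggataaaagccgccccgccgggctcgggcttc
ID3: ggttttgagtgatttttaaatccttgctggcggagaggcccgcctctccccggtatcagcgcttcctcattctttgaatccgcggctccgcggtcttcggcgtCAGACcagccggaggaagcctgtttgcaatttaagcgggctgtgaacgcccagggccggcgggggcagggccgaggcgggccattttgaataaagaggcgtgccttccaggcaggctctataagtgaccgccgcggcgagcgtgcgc
SMAD6: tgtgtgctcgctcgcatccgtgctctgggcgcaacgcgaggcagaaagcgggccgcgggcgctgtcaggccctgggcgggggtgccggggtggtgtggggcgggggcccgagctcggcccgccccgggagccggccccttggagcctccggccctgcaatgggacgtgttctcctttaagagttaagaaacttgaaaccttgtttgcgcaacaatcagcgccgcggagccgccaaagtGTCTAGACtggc

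The SMAD6 window held the palindrome GTCTAGAC, which contains GTCTAG once on each strand, starting 12 bases before the transcription start. Of 35116 promoter windows of the same length, 0.182% held GTCTAGAC and 4.92% held GTCTAG. The ID1 window held 1 match to GTCTAG, starting 138 bases before the start, and the ID3 window held 1 match to CAGAC, which 38% of all windows hold. The ID2 window held none of these letters. SMAD7, at chr18:48919853-48950965, has 3 annotated starts, and 2 of their 3 windows held CAGAC. The letters GGCGCC, a GC-rich core also linked to BMP-activated SMADs and found in 16.4% of all windows, were in none of the members' windows. A match describes letters only, and the motifs were picked with earlier results of these data known.

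ID1 was the member with the largest difference in tRNA-Glu cells. Its brighter probe, ILMN_1664861, read 3200 and 2353.1 in the tRNA-Glu arrays, 1617.6 and 1964 in the tRNA-Arg arrays and 549 and 669.7 in the control arrays (raw intensity, detection p-value 0 on every array). The groups did not overlap, with tRNA-Glu cells highest and control cells lowest. After background correction and quantile normalization the log2 level was 11.32 ± 0.05 in tRNA-Glu cells, 10.71 ± 0.10 in tRNA-Arg cells and 9.26 ± 0.01 in control (SD, n = 2 arrays each). The level was thus 4.16-fold higher in tRNA-Glu cells than in control, a log2 difference of 2.06 ± 0.09 (SE of the fit). In bulk RNA more cells of a kind and more RNA per cell cannot be told apart.

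Only 0.309% of the 18106 probes kept for testing (detection p-value under 0.01 on at least 2 arrays) had an equal or higher difference between tRNA-Glu and control cells, as a description of a value that chose the gene. Of all kept probes, 53.7% had an adjusted p under 0.05 in that comparison, 26.7% as higher and 27.0% as lower, and arrays did not overlap for 77.2%, so a lack of overlap says little by itself. In the authors' deposited table, ID1 has a log fold change of -1.26 for tRNA-Glu and -0.82 for tRNA-Arg, opposite in sign to the array values. Signs there are opposite for all 5 members in both lines. All differences here follow the array labels.

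The other ID1 probe, ILMN_1665832, gave a smaller difference in the same direction. It read 127.7 and 127.5 in tRNA-Glu cells, 97 and 103.9 in tRNA-Arg cells and 61.7 and 82.9 in control cells, again with a detection p-value of 0 throughout. The groups again stood in the order tRNA-Glu, tRNA-Arg, control, with no overlap. Its log2 difference between tRNA-Glu and control was 1.16 ± 0.17 (SE), or 2.24-fold. Averaging both probes in the authors' deposited processed intensities gave 1.47 on the log2 scale for ID1 in tRNA-Glu cells, against 2.02 for the brighter probe alone in the same values.

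In tRNA-Arg cells ID1 was higher than in control by both probes. This comparison did not choose the gene but shares the control arrays, so the p-values of ID1 in it are not free of that choice. The brighter probe was 2.73-fold higher than in control (log2 difference 1.45 ± 0.09 SE, limma adjusted p = 7.72e-05, Benjamini-Hochberg over all kept probes). The dimmer probe was 1.56-fold higher (log2 difference 0.64 ± 0.17 SE, adjusted p = 0.0222). Of all kept probes, 39.7% were called at an adjusted p under 0.05 in this comparison, 19.2% as higher and 20.4% as lower, and arrays did not overlap for 71.3%. The call of the dimmer probe was lost without tRNA-Arg replicate 1 (log2 difference 0.64), without tRNA-Arg replicate 2 (0.65), without control replicate 1 (0.43) and with no filter on detection (0.64).

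**Figure D1:**
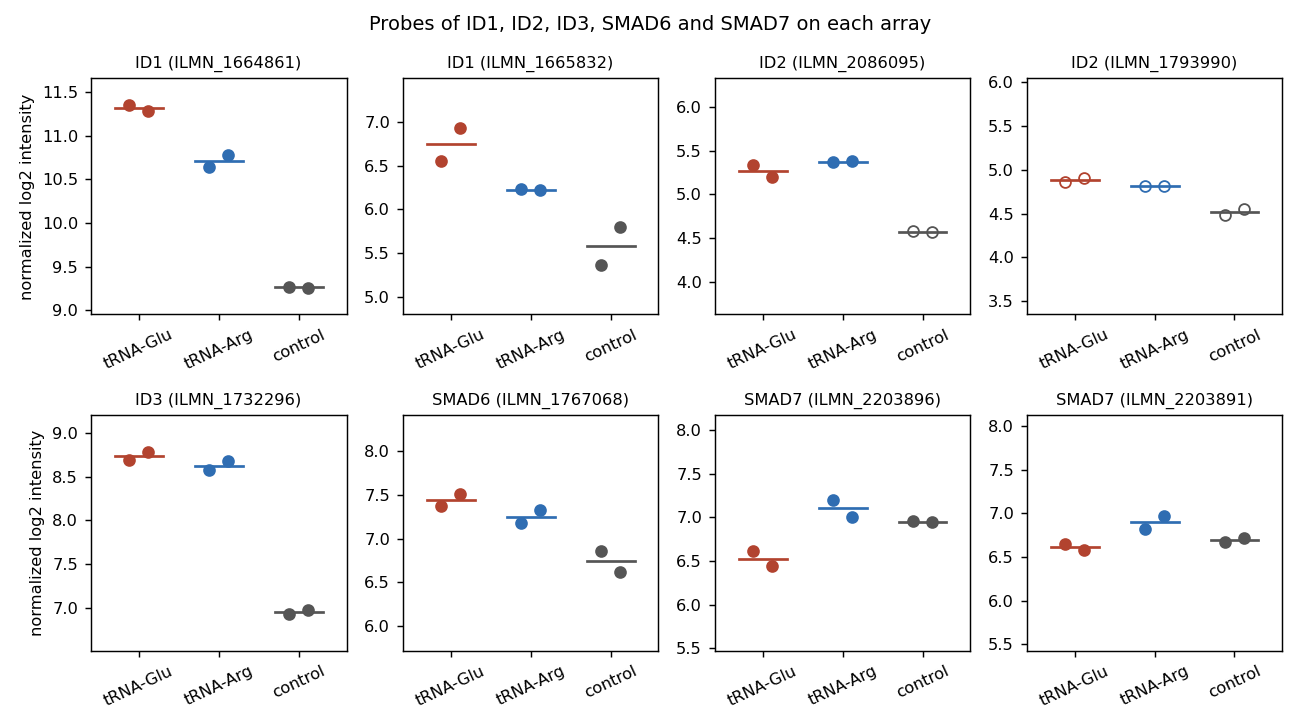
Normalized log2 intensity (y axis) of the 8 probes on each array (points), by group (x axis), with a bar at each group's mean; filled points have a detection p-value under 0.01, and every panel spans the same number of log2 units. Both ID1 probes and the ID3 probe are lowest in control, and the SMAD7 probe ILMN_2203896 is lowest in tRNA-Glu cells. The ID2 probe ILMN_2086095 is open in control only, and the ID2 probe ILMN_1793990 is open on every array.

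ID3, the close relative of ID1, was higher in both lines by about the same amount. Its probe ILMN_1732296 read 498.6 and 406 in tRNA-Glu cells, 397.6 and 474 in tRNA-Arg cells and 133.5 and 160.4 in control cells. The arrays of both lines were above both control arrays on the raw scale, and the lines overlapped each other. The normalized log2 level was 8.74 ± 0.06 in tRNA-Glu cells, 8.63 ± 0.08 in tRNA-Arg cells and 6.95 ± 0.03 in control (SD, n = 2 each). The difference from control was 1.79 ± 0.09 (SE) on the log2 scale in tRNA-Glu cells, or 3.45-fold. In tRNA-Arg cells ID3 rose 3.20-fold (log2 difference 1.68 ± 0.09 SE, limma adjusted p = 4.22e-05).

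ID2 was near the limit of detection. Its probe ILMN_2086095 read 67.3 and 56.1 in tRNA-Glu cells and 63.7 and 68.3 in tRNA-Arg cells, with detection p-values of 0.0026 or less. In control cells it read 45.4 and 44.8, with detection p-values of 0.0909 and 0.105, and was thus below detection. This probe passed the filter on dim probes only through the lines. The filter itself thus favoured a rise over control, and the p-value is no independent support for one. ID2 was at least 1.47-fold higher in tRNA-Glu cells and at least 1.59-fold higher in tRNA-Arg cells than in control (limma adjusted p = 0.000667 in tRNA-Arg cells), taking control at the lowest signal above background. Such a bound holds for background-corrected values only: with no background correction the log2 differences were 0.33 in tRNA-Glu and 0.38 in tRNA-Arg cells. The measured log2 means were 5.27 in tRNA-Glu cells, 5.37 in tRNA-Arg cells and 4.57 in control.

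The other ID2 probe, ILMN_1793990, was the only one of the 8 that did not pass the filter. It read 54.2 and 51 in tRNA-Glu cells, 51.1 and 53 in tRNA-Arg cells and 43.3 and 44.3 in control. The lines were again above control, by at least 1.13-fold in tRNA-Glu cells and 1.08-fold in tRNA-Arg cells, and no test was made. The probe of ID4, the remaining gene of the family, did not pass the filter either.

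SMAD6, the inhibitor of BMP signalling, was modestly higher in both lines. Its probe ILMN_1767068 read 209.3 and 178.4 in tRNA-Glu cells, 164.8 and 199.2 in tRNA-Arg cells and 128.5 and 131.6 in control cells. All 4 arrays of the lines were above the control arrays. The normalized log2 level was 7.44 ± 0.10 in tRNA-Glu cells, 7.25 ± 0.10 in tRNA-Arg cells and 6.74 ± 0.17 in control (SD, n = 2 each). In tRNA-Glu cells the difference from control was 0.69 ± 0.11 (SE) on the log2 scale, or 1.62-fold. In tRNA-Arg cells SMAD6 rose 1.42-fold (log2 difference 0.51 ± 0.11 SE, limma adjusted p = 0.012), a call lost without tRNA-Arg replicate 2 (log2 difference 0.43), without control replicate 2 (0.39) and with median scaling (0.52).

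SMAD7, the inhibitor of both branches, read differently by its probes in tRNA-Glu cells, and neither probe was called in tRNA-Arg cells. Its probe ILMN_2203896 read 132.6 and 97.8 in tRNA-Glu cells, 167.5 and 162.8 in tRNA-Arg cells and 135.3 and 157.7 in control cells. The tRNA-Glu arrays were lowest and the tRNA-Arg arrays highest. Its log2 difference from control was -0.42 ± 0.10 (SE) in tRNA-Glu cells. In tRNA-Arg cells it was 0.16, with a 95% interval from the fit of -0.09 to 0.40, and was not called (limma adjusted p = 0.273).

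The other SMAD7 probe, ILMN_2203891, read 135.1 and 105.1 in tRNA-Glu cells, 133.5 and 159.6 in tRNA-Arg cells and 115.8 and 139.5 in control cells. On this scale the groups overlapped. Its log2 difference from control was -0.09 ± 0.09 (SE) in tRNA-Glu cells. In tRNA-Arg cells it was 0.20 (95% interval -0.01 to 0.41, limma adjusted p = 0.121). In all, 5 of the 7 tested member probes were called in tRNA-Arg cells, all as higher, and 3 without tRNA-Arg replicate 2, beside 39.7% of all kept probes called and 19.2% called higher. Among the 5 is the ID2 probe that the filter kept only through the lines. Both ID1 probes are also among them, and ID1 was chosen for a rise over the same control arrays.

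**Figure D2:**
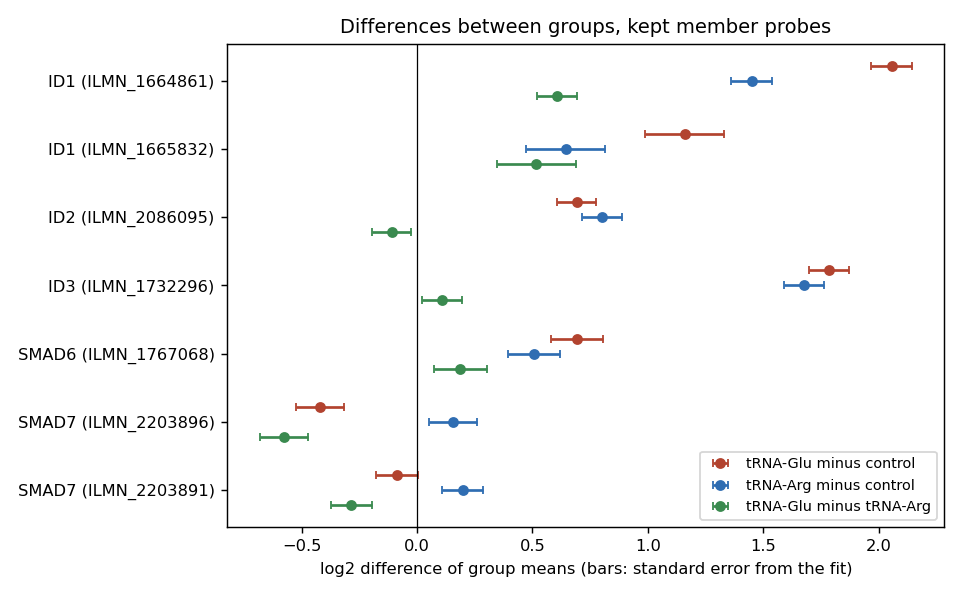
Log2 difference of group means (x axis) with its standard error from the fit (bars) for the 7 kept member probes (rows), in 3 comparisons. ID1 stands at 2.06 and 1.45 by its brighter probe in tRNA-Glu and tRNA-Arg cells against control, ID3 at 1.79 and 1.68, and the SMAD7 probe ILMN_2203896 at -0.42 and 0.16.

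Set against each other, the lines differed in SMAD7, with lower levels in tRNA-Glu cells. The probe ILMN_2203896 was 1.49-fold lower in tRNA-Glu than in tRNA-Arg cells (log2 difference -0.58 ± 0.10 SE, n = 2 arrays each, limma adjusted p = 0.00753), and was past the threshold under all 14 alternative settings, with differences from -0.67 to -0.43. For the probe ILMN_2203891 the log2 difference was -0.28 ± 0.09 (SE), or 1.22-fold lower in tRNA-Glu cells (adjusted p = 0.045). This call held under 4 of 13 alternatives, with differences from -0.36 to -0.21, and under none of the 6 that left out an array. These were the 2 calls among the 5 probes tested in this comparison, where 35.9% of all kept probes were called, 18.0% as higher and 17.8% as lower, and arrays did not overlap for 70.6%.

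ID2, ID3 and SMAD6 were not called between the lines. The log2 difference, tRNA-Glu minus tRNA-Arg, was 0.11 for ID3 (95% interval -0.10 to 0.31, limma adjusted p = 0.364) and 0.19 for SMAD6 (-0.08 to 0.46, adjusted p = 0.236). For the ID2 probe ILMN_2086095 it was -0.11 (-0.31 to 0.09, adjusted p = 0.349). Their levels in the lines are therefore not told apart here, while intervals of this width leave room for a small difference. ID1, described only, was 1.52-fold higher in tRNA-Glu than in tRNA-Arg cells by its brighter probe and 1.43-fold by its dimmer one.

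The rest of the pathway was taken from 8 lists with 127 genes, of which 93 had a kept probe. A gene was stood for by its kept probe with the highest mean. Over these genes, 28 rose and 29 fell in tRNA-Glu cells, a share to be read against all genes, of which 56.8% were called, 30.3% as higher and 26.5% as lower. In tRNA-Arg cells 28 rose and 25 fell, and of all genes 42.6% were called, 20.5% as higher and 22.2% as lower. Between the lines 17 were higher and 24 lower in tRNA-Glu than in tRNA-Arg cells, and of all genes 38.2% were called, 21.7% as higher and 16.5% as lower. The median log2 difference over the 93 genes was 0.03 in tRNA-Glu cells and -0.005 in tRNA-Arg cells, beside 0.04 and -0.02 over all genes tested. Of the rises, 5 in each line were of genes that passed the detection filter on no control array, and 1 fall in tRNA-Glu cells, that of ZEB1, was of a gene that passed it on no tRNA-Glu array. The comparisons share the control arrays, so like values in them are not independent.

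Among 8 measured ligands, 3 rose and 2 fell in each line. GDF11, a secreted factor that signals through activin receptors, was 2.28-fold higher in tRNA-Glu cells (log2 difference 1.19 ± 0.11 SE, limma adjusted p = 0.000235) and 1.72-fold higher in tRNA-Arg cells (adjusted p = 0.00218). Another of its probes had the opposite sign in tRNA-Glu cells. TGFB3, a TGF-beta ligand, was below detection in control cells, and its level after background correction was at least 1.81-fold higher in tRNA-Glu and 1.71-fold higher in tRNA-Arg cells (adjusted p = 0.000310 and 0.000833), and 1.41-fold and 1.37-fold higher without that correction. Like ID2, it was kept for testing only through the lines, so the filter favoured a rise and the p-values are no independent support. TGFB2, another of the TGF-beta ligands, was 2.10-fold lower in tRNA-Glu cells (adjusted p = 0.000355). BMP6, a BMP ligand also below detection in control cells, was higher by at least 1.31-fold in tRNA-Arg cells (adjusted p = 0.00758; not called with median scaling, log2 difference 0.48), or 1.16-fold with no background correction. It was kept only through the tRNA-Arg arrays. The median of the ligands was -0.04 in tRNA-Glu and -0.03 in tRNA-Arg cells. Fits without 1 array at a time gave 3 rises and 2 to 3 falls in tRNA-Glu cells, and 3 rises and 0 to 2 falls in tRNA-Arg cells. The other settings tried, of background correction, scaling, filter, source of values, unit tested and replicate block, gave 2 to 3 rises and 1 to 2 falls in tRNA-Glu cells, and 1 to 3 rises and 0 to 2 falls in tRNA-Arg cells.

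Of 9 measured receptors, 2 rose and 4 fell in tRNA-Glu cells, and 2 rose and 3 fell in tRNA-Arg cells. ACVR1, a receptor kinase for BMPs, was 1.54-fold lower in each line (limma adjusted p = 0.00189 in tRNA-Glu and 0.00323 in tRNA-Arg cells), and was not called in tRNA-Arg cells with median scaling (log2 difference -0.52). TGFBR2, the ligand-binding receptor for TGF-beta, was 1.54-fold lower in tRNA-Glu and 1.78-fold lower in tRNA-Arg cells (adjusted p = 0.000794 and 0.000473). TGFBR1, its partner kinase, was 1.84-fold higher in tRNA-Glu cells (adjusted p = 0.00143), or 1.37-fold with no background correction. No control array passed the detection filter for TGFBR1, so it was kept only through the lines. ENG, a co-receptor, was 1.58-fold higher in tRNA-Glu cells (adjusted p = 0.000822). In tRNA-Arg cells ENG, a direction named here after its values were seen, was 1.27-fold lower (log2 difference -0.35, adjusted p = 0.0174). That fall was not called without tRNA-Arg replicate 1 (-0.29) or control replicate 2 (-0.32), with median scaling (-0.36), with no background correction (-0.18) or with an offset of 50 (-0.19). BMPR1B, a BMP receptor kinase, was 1.32-fold higher in tRNA-Arg cells (adjusted p = 0.0173). That call was lost without tRNA-Arg replicate 2 (log2 difference 0.30), control replicate 1 (0.37) or control replicate 2 (0.42), and with median scaling (0.39). Receptor medians were -0.12 in tRNA-Glu and -0.16 in tRNA-Arg cells. Leaving out 1 array gave 2 rises and 2 to 4 falls in tRNA-Glu cells, and 0 to 2 rises and 2 to 3 falls in tRNA-Arg cells. Under the other settings there were 1 to 2 rises and 1 to 4 falls in tRNA-Glu cells, and 0 to 2 rises and 1 to 4 falls in tRNA-Arg cells. With median scaling there were 2 rises and 1 fall in tRNA-Glu cells, and 0 rises and 1 fall in tRNA-Arg cells.

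Of the SMADs that carry the signal, SMAD4 was lower in both lines. SMAD4, the partner shared by both branches, read 269.6 and 224.4 in tRNA-Glu cells, 346.2 and 405.3 in tRNA-Arg cells and 397 and 501.6 in control cells. It was 1.94-fold lower in tRNA-Glu cells (log2 difference -0.96 ± 0.09 SE, limma adjusted p = 0.000184) and fell by 0.38 on the log2 scale in tRNA-Arg cells (adjusted p = 0.0126). The tRNA-Arg call was lost without tRNA-Arg replicate 1 (log2 difference -0.34) or control replicate 2 (-0.35), and with median scaling (-0.31). SMAD5, of the BMP branch, was 1.31-fold lower in tRNA-Glu cells (adjusted p = 0.0189), with another probe of opposite sign. That call was lost without tRNA-Glu replicate 2 (-0.34), control replicate 1 (-0.36) or control replicate 2 (-0.42), and with median scaling (-0.28). SMAD3, of the TGF-beta branch, was 1.20-fold higher there (adjusted p = 0.0289), a call lost without tRNA-Glu replicate 1 (0.27), tRNA-Glu replicate 2 (0.26) or control replicate 2 (0.22), and with median scaling (0.40). In all, 1 of 5 rose and 2 fell in tRNA-Glu cells (median -0.33), and 0 rose and 1 fell in tRNA-Arg cells (median -0.22). When single arrays were left out there were 0 to 1 rises and 1 to 2 falls in tRNA-Glu cells, and 0 to 2 falls in tRNA-Arg cells. The other settings gave 0 to 1 rises and 1 to 2 falls in tRNA-Glu cells, and 0 rises and 0 to 2 falls in tRNA-Arg cells.

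Among 21 antagonists and other regulators, 5 rose and 6 fell in tRNA-Glu cells, and 7 rose and 6 fell in tRNA-Arg cells, with medians of -0.05 and 0.04. FST, the activin-binding protein follistatin, was 2.33-fold higher in tRNA-Glu and 3.66-fold higher in tRNA-Arg cells (limma adjusted p = 0.000105 and 3.85e-05). NOG, the BMP-binding protein noggin, read 69.1 and 58.4 in tRNA-Glu cells, 104.8 and 116.4 in tRNA-Arg cells and 57.5 and 56.2 in control cells. The tRNA-Arg arrays were highest, 2.46-fold over control (adjusted p = 0.000124). PPM1A, a phosphatase reported to act on SMADs, was 3.27-fold lower in tRNA-Glu and 2.52-fold lower in tRNA-Arg cells (adjusted p = 3.87e-05 and 0.000129), with 1 of its 4 kept probes of opposite sign in tRNA-Arg cells. SMURF2, a ubiquitin ligase recruited by SMAD7, was 2.14-fold lower in tRNA-Glu and 1.67-fold lower in tRNA-Arg cells (adjusted p = 0.000234 and 0.00202).

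Chosen after their values were seen, BAMBI and PMEPA1 are feedback inhibitors that, like SMAD7, are induced by the signal they restrain. BAMBI rose by 0.67 on the log2 scale in tRNA-Glu and by 0.58 in tRNA-Arg cells (limma adjusted p = 0.00110 and 0.00329), and PMEPA1 by 0.73 and 0.60 (adjusted p = 0.000439 and 0.00181). SMAD7 itself stood at -0.42 and 0.16 by its probe ILMN_2203896. Falls on the same list included SMURF2 (-1.10 and -0.74) and FSTL3 (-0.32 and -0.41), and SKIL was called in neither line. Fits without 1 array gave 4 to 5 rises and 5 to 6 falls for the regulators in tRNA-Glu cells, and 5 to 7 rises and 5 to 6 falls in tRNA-Arg cells. Under the other settings there were 4 to 6 rises and 5 to 6 falls in tRNA-Glu cells, and 6 to 7 rises and 5 to 6 falls in tRNA-Arg cells.

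Other genes that respond to SMADs were called in both directions. Of 12 measured, 3 rose and 6 fell in tRNA-Glu cells (median -0.30), and 1 rose and 4 fell in tRNA-Arg cells (median 0.00). KLF10, an early TGF-beta target, was 2.63-fold lower in tRNA-Glu cells (limma adjusted p = 0.000353) and 1.66-fold lower in tRNA-Arg cells (adjusted p = 0.00833; not called without control replicate 2, log2 difference -0.61). ZEB1, a repressor of epithelial genes, was below detection in tRNA-Glu cells, so that its level after background correction was lower there by at least 2.78-fold (adjusted p = 0.000130) and by 1.75-fold with no correction, and 1.64-fold lower in tRNA-Arg cells (adjusted p = 0.00424). HEY1, a Notch and BMP target, was 1.76-fold lower in tRNA-Arg cells (adjusted p = 0.000723). CDKN1A, the cell cycle inhibitor p21, was 1.90-fold higher in tRNA-Glu cells (adjusted p = 0.000165). Leaving out 1 array gave 2 to 3 rises and 4 to 6 falls in tRNA-Glu cells, and 1 rise and 2 to 4 falls in tRNA-Arg cells. The other settings gave 3 rises and 4 to 7 falls in tRNA-Glu cells, and 1 to 2 rises and 3 to 4 falls in tRNA-Arg cells.

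**Figure D3:**
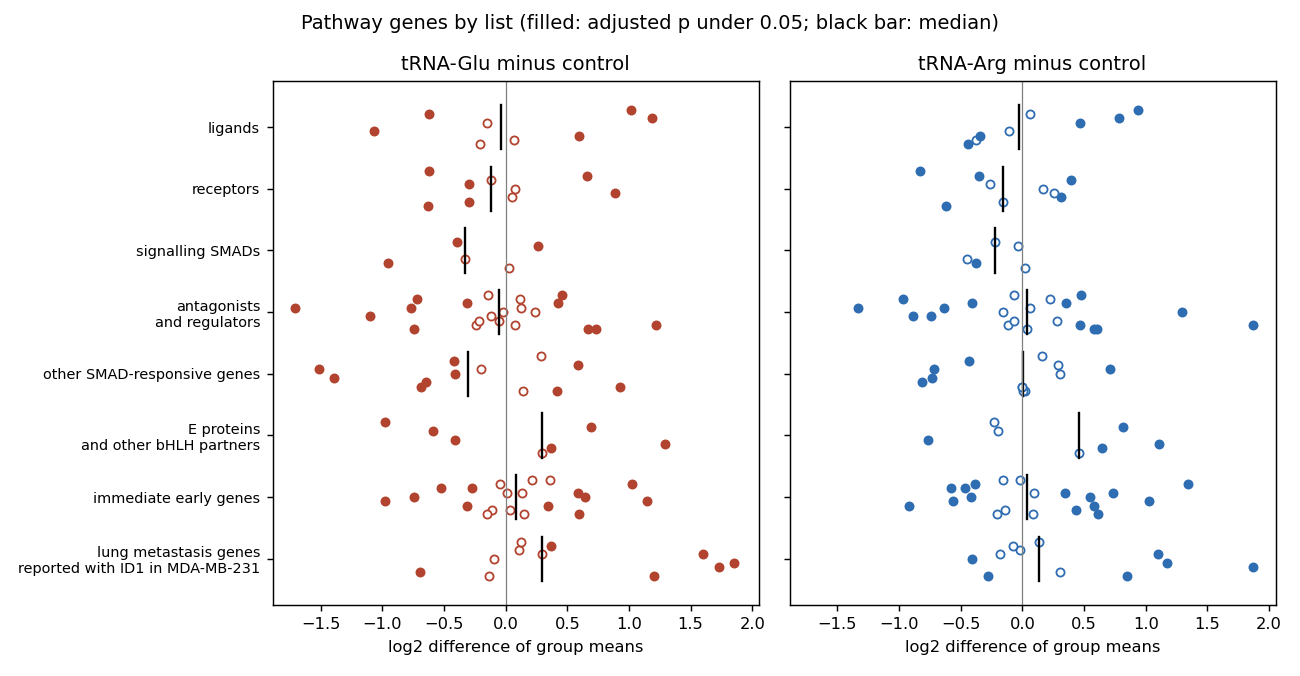
Log2 difference from control (x axis) of each measured pathway gene (points) in tRNA-Glu (left) and tRNA-Arg cells (right), by list (rows); filled points passed the test and the black bar is the list's median. Genes of every list lie on both sides of 0, with MMP1, VCAM1 and IL13RA2 at the right in the lowest row.

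The list of ID partners, taken as a whole, moved both ways. Its only measured E proteins were TCF3 and TCF12, and setting them apart was not fixed in advance. Where called, they were lower, and among all genes 26.5% were called lower in tRNA-Glu and 22.2% in tRNA-Arg cells. Of 7 measured E proteins, other helix-loop-helix factors and ETS factors, 3 rose and 3 fell in tRNA-Glu cells (median 0.30), and 3 rose and 1 fell in tRNA-Arg cells (median 0.46). TCF12, an E protein, was 1.97-fold lower in tRNA-Glu cells (limma adjusted p = 0.000255), and TCF3, the best-studied E protein, was 1.70-fold lower in tRNA-Arg cells (adjusted p = 0.000711). TCF3 was also lower in tRNA-Glu cells (log2 difference -0.41, adjusted p = 0.00522), while TCF12 was not called in tRNA-Arg cells (-0.23, adjusted p = 0.0996). The called rises were all of genes other than these E proteins. LYL1, a factor of blood cells, was 2.45-fold higher in tRNA-Glu and 2.16-fold higher in tRNA-Arg cells (adjusted p = 0.000715 and 0.00238). Its control arrays read 46.6 and 56.4 (detection p-values 0.0688 and 0.00519), so these folds start near the limit of detection. Of the 5 markers of blood cells, 3 were also called higher in both lines. CD14 was lower in tRNA-Arg cells, and PTPRC was detected on no array. The part of blood cells in the LYL1 values was not tested. HAND1, a factor of heart and placenta, was 1.61-fold and 1.76-fold higher (adjusted p = 0.00403 and 0.00319), or 1.26-fold and 1.32-fold with no background correction. It was kept for testing only through the lines. When single arrays were left out there were 2 to 3 rises and 3 falls in tRNA-Glu cells, and 3 to 4 rises and 1 fall in tRNA-Arg cells. Under the other settings there were 1 to 3 rises and 1 to 3 falls in tRNA-Glu cells, and 1 to 3 rises and 1 fall in tRNA-Arg cells.

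The list of immediate early genes, a class that serum and growth factors induce, and related factors moved both ways. Of 20 measured, 6 rose and 5 fell in tRNA-Glu cells (median 0.08), and 8 rose and 6 fell in tRNA-Arg cells (median 0.03). FOS, a subunit of AP-1, was below detection in control cells, and its level was at least 1.75-fold higher in tRNA-Glu and 2.18-fold higher in tRNA-Arg cells after background correction (limma adjusted p = 0.00137 and 0.000868), and 1.43-fold and 1.61-fold higher without it. FOSB, its close relative, was likewise at least 2.06-fold and 1.89-fold higher (adjusted p = 0.000376 and 0.00111), and 1.49-fold and 1.42-fold with no correction. Both genes were kept only through the lines, so the filter favoured a rise over control and their p-values are no independent support. EGR1, a zinc finger factor chosen after its values were seen, was 1.27-fold higher in tRNA-Glu and 1.49-fold higher in tRNA-Arg cells (adjusted p = 0.0193 and 0.00335), and its call in tRNA-Glu cells was lost without tRNA-Glu replicate 1 (log2 difference 0.28), control replicate 1 (0.33) or control replicate 2 (0.35), and with median scaling (0.30). KLF4, a zinc finger factor, was 1.97-fold lower in tRNA-Glu and 1.47-fold lower in tRNA-Arg cells (adjusted p = 0.000442 and 0.00742). JUND, an AP-1 subunit, was 1.24-fold lower in tRNA-Glu and 1.90-fold lower in tRNA-Arg cells (adjusted p = 0.0190 and 0.000409). Fits without 1 array gave 5 to 7 rises and 3 to 5 falls in tRNA-Glu cells, and 6 to 8 rises and 5 to 6 falls in tRNA-Arg cells. The other settings gave 4 to 8 rises and 2 to 5 falls in tRNA-Glu cells, and 6 to 8 rises and 1 to 7 falls in tRNA-Arg cells. The fewest falls, 2 in tRNA-Glu and 1 in tRNA-Arg cells, came with median scaling.

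Genes reported beside ID1 in lung metastasis of this cell line included rises and falls. Of 11 measured, 5 rose and 1 fell in tRNA-Glu cells (median 0.29), and 4 rose and 2 fell in tRNA-Arg cells (median 0.14). Of all genes, 30.3% were called higher and 26.5% lower in tRNA-Glu cells, and 20.5% higher and 22.2% lower in tRNA-Arg cells. MMP1, a collagenase, read 1547.4 and 1069.5 in tRNA-Glu cells, 800.4 and 849.2 in tRNA-Arg cells and 332.5 and 369.8 in control cells, the same order of groups as ID1. It was 3.62-fold higher in tRNA-Glu and 2.25-fold higher in tRNA-Arg cells than in control (limma adjusted p = 3.72e-05 and 0.000246). IL13RA2, a decoy receptor for interleukin 13, was 3.31-fold and 3.66-fold higher (adjusted p = 2.66e-05 and 2.22e-05). VCAM1, an adhesion molecule, was 3.02-fold and 2.14-fold higher (adjusted p = 3.84e-05 and 0.000194), with 1 of its 3 kept probes of opposite sign in tRNA-Glu cells. TNC, the matrix protein tenascin C, chosen after its values were seen, was 2.31-fold and 1.80-fold higher (adjusted p = 7.58e-05 and 0.000492). The gene that fell in tRNA-Glu cells was EREG (log2 difference -0.70, adjusted p = 0.0120). Those that fell in tRNA-Arg cells were SPARC (-0.41, adjusted p = 0.00798) and ANGPTL4 (-0.28, adjusted p = 0.0294). CXCL1, PTGS2 and FSCN1 were called in neither line. Leaving out 1 array gave 5 rises and 0 to 1 falls in tRNA-Glu cells, and 4 rises and 1 to 2 falls in tRNA-Arg cells. Under the other settings there were 4 to 6 rises and 1 fall in tRNA-Glu cells, and 4 rises and 0 to 2 falls in tRNA-Arg cells.

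Over the 6 arrays, the 5 genes with profiles nearest to that of ID1 were UCN2, PYCARD, GPER1, MAP1LC3A and ISG15. Likeness was the root mean square distance between normalized log2 values centred on each gene's own mean, over 10876 genes, with no test. UCN2, a peptide hormone of the corticotropin-releasing factor family, was nearest at 0.04 log2 units. It read 1000.5 and 740.1 in tRNA-Glu cells, 551.4 and 644.3 in tRNA-Arg cells and 188.7 and 237.1 in control cells. PYCARD, an inflammasome adaptor, GPER1, a membrane receptor for estrogen, MAP1LC3A, an autophagy protein, and ISG15, an interferon-induced modifier, followed at 0.06, 0.06, 0.11 and 0.11. This order depended on the background correction: without it UCN2 stood at 0.04 and ISG15 at 0.09, while MAP1LC3A, GPER1 and PYCARD were at 0.21, 0.23 and 0.24. ID3 ranked 37 among these genes at 0.21, while ID2 and SMAD6 ranked 773 and 887 and SMAD7 ranked 8290.

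**Figure D4:**
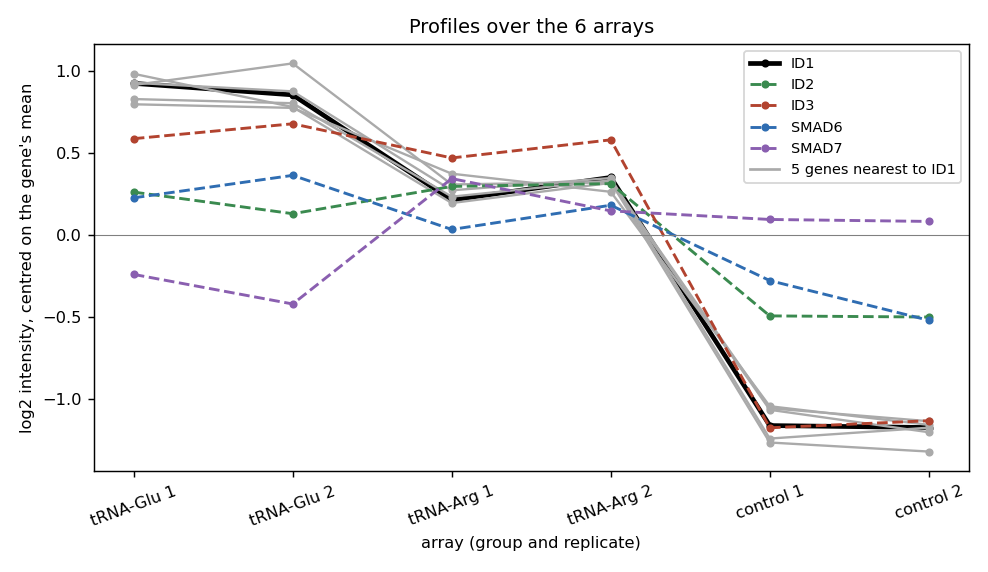
Normalized log2 intensity centred on each gene's mean (y axis) on the 6 arrays (x axis) for ID1, the other members by their brightest kept probe, and the 5 nearest genes in grey. The grey lines follow ID1 from tRNA-Glu through tRNA-Arg to control, ID3 is level between the lines, and SMAD7 is lowest in tRNA-Glu cells.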

How the data were processed

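Per the file headers, the authors deposited linear bead summary intensity of each probe, unnormalized, beside its detection p-value on that array. They also deposited processed intensity values, for which the submitters' processing notes name lumi without version or settings, and a table of log2-like fold change per gene symbol whose base and sign are not stated.

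Raw intensities were background-corrected from the detection p-values (limma 3.58.1 in R 4.3.3, nec, offset 16), quantile normalized and taken to log2. Probes with a detection p-value under 0.01 on at least 2 of 6 arrays were kept (18106). Gene names came from the platform's annotation table, with symbols updated through Entrez identifiers; 30113 probes had 1 gene, 8 several and 17202 none.

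The limma fit (lmFit, eBayes) covered all kept probes in 1 model over the 3 groups, with 3 residual and 4.11 prior degrees of freedom, and was checked on simulated data. Adjusted p-values are Benjamini-Hochberg over all kept probes, and a call is one under 0.05. The raw scale is given per array and all differences are on the normalized log2 scale. A probe whose detection p-value reached 0.05 on each array of a group was taken as below detection there. Its fold is then a lower bound, set against the lowest signal above background, and depends on the background correction.

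Named are all member probes and, per list and comparison, up to 3 called genes of largest difference whose arrays did not overlap. Other values of the listed genes are given beside them in places. Apart from BAMBI, PMEPA1, EGR1, TNC and ENG, these other values were not followed through the alternatives. For likeness to ID1 the 5 nearest genes are named. Members, lists and this rule were chosen with earlier results of these data known. The number of arrays limits the precision. Where in its transcript each probe lies was not analysed here. Labels and column names give no slide or scan, so slide was not tested as a block. Alternatives changed the background correction, offset, scaling, detection filter, source of values, unit tested and replicate block, and left out each array.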

Additional observations from a re-analysis of the deposited data

Results flagged for a closer look

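Differences between the lines that passed the limma test of tRNA-Glu minus tRNA-Arg are given here as log2 differences (adjusted p under 0.05), each with 2 arrays per group. Of all genes, 21.7% were called higher and 16.5% lower in that comparison. Among members, the SMAD7 probes ILMN_2203896 and ILMN_2203891 differed by -0.58 and -0.28. Over the 93 pathway genes 17 were higher and 24 lower in tRNA-Glu than in tRNA-Arg cells.

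Of the ligands, GDF15 differed by 0.94, TGFB2 by -0.96 and INHBB by -0.68. Of the receptors, ENG differed by 1.01, BMPR1B by -0.52 and TGFBR1 by 0.63 after background correction and by 0.33 without it. SMAD4 differed by -0.58 and SMAD3 by 0.30. Of the regulators, NOG differed by -1.06, TWSG1 by -0.78 and LTBP3 by 0.77. Of the SMAD-responsive genes, CDKN1A differed by 0.93, CCN2 by -0.91 and ZEB1, not above background in tRNA-Glu cells, by -0.80 after background correction and by -0.38 without it.

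Of the partners of ID proteins, TCF12 differed by -0.75, ETS1 by -0.38, with another probe of opposite sign, and TCF3 by 0.36. On the list of immediate early genes and related factors, JUND differed by 0.61, DUSP1 by -0.60 and KLF4 by -0.42. Of the lung metastasis genes, EREG differed by -1.005, MMP1 by 0.69 and VCAM1, with 2 of its 3 kept probes of opposite sign, by 0.50.

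Some of these calls rest on single arrays or on the scaling. Without tRNA-Glu replicate 1, SMAD3 (0.30) and KLF4 (-0.30) were not called. Without tRNA-Glu replicate 2, BMPR1B (-0.46), TGFBR1 (0.58), SMAD3 (0.29), TCF3 (0.31) and ETS1 (-0.31) were not called. Without tRNA-Arg replicate 1, SMAD3 (0.29), TCF3 (0.36), ETS1 (-0.35) and KLF4 (-0.50) were not called, and without tRNA-Arg replicate 2, SMAD3 (0.30), TCF3 (0.36), ETS1 (-0.42) and KLF4 (-0.34). With median scaling BMPR1B (-0.55), SMAD3 (0.30), TCF3 (0.35), ETS1 (-0.37), KLF4 (-0.45) and VCAM1 (0.49) were not called, nor, with no filter on detection, were ETS1 (-0.38) and KLF4 (-0.42).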

How the results depend on the processing

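No member difference and no named gene followed through the alternatives changed direction under any of them. Some alternatives could not change one: the detection filters, 1 probe per gene and the replicate block leave differences and likeness distances as they were. Leaving out an array of the group not compared also leaves a difference as it was. Tested member differences kept their side of the threshold in 147 of 163 alternative values, and named pathway genes in 1025 of 1075. By its brighter probe the ID1 difference of tRNA-Glu minus control was 2.06. It was 1.99 with no background correction, 2.21 with median scaling, 2.00 with an offset of 50 and 2.02 in the authors' processed values. With 1 array left out it was 2.02 to 2.09. The other ID1 probe, ILMN_1665832, at 1.16 in that comparison, ran from 0.75 to 1.38 over the alternatives. Dimmer probes moved more: the ID2 difference in that comparison was 0.33 with an offset of 50, against 0.69, and in tRNA-Arg cells 0.39, against 0.80. Likeness distances moved by more than the replicate spread in 8 of 70 alternative values. The number of called probes fell to 6062, 3396 and 2102 with median scaling (tRNA-Glu minus control, tRNA-Arg minus control, and between the lines), against 9729, 7181 and 6492. Between the lines 32.8% of calls were higher with median scaling, against 50.3%. Counting 1 probe per gene, 6476 were called for tRNA-Glu minus control. When single arrays were left out there were 7621 to 9454, 4760 to 6942 and 3200 to 6193 calls. Of the member probes, 3 to 5 were called in tRNA-Arg cells when 1 array was left out. The count of 2 member probes called between the lines was 1 with median scaling, with no filter on detection, with 1 probe per gene and with the replicate block, and 1 to 1 when 1 array was left out. With the replicate number as a block, 9497, 6866 and 6061 probes were called. Replicate numbers did not pair the arrays (correlations of deviations between groups of -0.01, -0.02 and 0.03), and the cause of the lost call was not tested. ID2 had no value with probes detected on all arrays.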
